A study of Mus musculus with 9 samples.

Results

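The genes described here are 48 genes of the DNA replication machinery, among 16344 genes in a table of messenger RNA levels of mouse CD8 T cells. They were taken by name, as a list of the proteins that license origins, build the replication fork, copy DNA and restore chromatin behind it, and all 48 were in the table. CD8 T cells are the lymphocytes that recognise and kill infected or malignant cells. Per the labels, wild-type cells from spleen and lymph nodes, about 100000 per sample, were stimulated with antibodies to CD3 and CD28 and kept overnight under 1 of 3 conditions, with 3 libraries each. The NaCl group received salt at 20 mM and was the control. The DAHB group received DAHB, a compound that the labels do not spell out, at 20 mM. The DAHB+O group received DAHB together with oligomycin, which blocks the ATP synthase of mitochondria, at 10 nM, and the labels do not repeat the dose of DAHB for it. The age and number of the mice are not given in the labels, and they do not state whether replicate libraries trace back to different mice or cultures. The p-values below therefore cover the variation among these libraries, which could be technical in part or in whole. All 9 libraries carry 1 batch label, and oligomycin without DAHB was not analysed here.

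In a dividing cell, the origin recognition complex with Cdc6 and Cdt1 loads the MCM2 to MCM7 ring onto DNA before S phase, and in S phase Cdc45 and the GINS complex turn that ring into the moving helicase. DNA polymerase alpha with primase lays down primers, polymerases epsilon and delta extend them on the sliding clamp PCNA, and flap nucleases and ligase join the fragments. Many of these genes are transcribed by E2F factors as cells pass from G1 into S phase, and T cells that leave rest after stimulation switch them on together.

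Values are normalized counts, read counts that the authors divided by a size factor per library. Whole reads recovered from them came to 28146402 to 39207045 per library. The 48 genes took 0.636 to 0.667% of all normalized counts in the NaCl libraries, 0.336 to 0.389% in the DAHB libraries and 0.556 to 0.568% in the DAHB+O libraries. Within groups the 48 genes varied by a median coefficient of variation of 3.10% in NaCl, 8.73% in DAHB and 1.94% in DAHB+O. In DAHB, replicate 3 was the lowest library for 44 of the 48 genes and replicate 1 the highest for 40. The share of mitochondrial transcripts ranged over 1.39 to 1.41% in the NaCl libraries, 1.89 to 2.37% in the DAHB libraries and 1.96 to 2.18% in the DAHB+O libraries, and its part in the results was not tested. All 8 markers of CD8 T cells were in the table, with Cd8a at 16166 to 22631 and Zap70 at 4295 to 8865 normalized counts over the 9 libraries. These are bulk samples of normalized counts, in which fewer cells in S phase and less of these transcripts per cell cannot be told apart.

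All 48 replication genes were lower in DAHB than in NaCl. All 3 DAHB libraries lay below all 3 NaCl libraries for each of the 48, and limma, fitted over 14169 genes, called all 48 lower and 0 higher at an adjusted p under 0.05. Of all tested genes 38.4% were called lower and 35.5% higher in that comparison, and 39.2% had every DAHB library below every NaCl library. The median log2 difference of the 48 was -0.82, beside -0.017 over all tested genes, and single genes ran from -1.61 for Clspn to -0.25 for Rpa3. Expressed as levels, the median gene kept 56.5% of its NaCl mean. Of the 48 genes, 21 fell 2-fold or more, beside 4.03% of all tested genes.

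Nearly all of the 48 were higher in DAHB with oligomycin than in DAHB alone. Of the 48 genes, 46 were called higher in DAHB+O than in DAHB and 0 lower, where 33.1% of all tested genes were called higher and 29.5% lower, and the same 46 genes had all 3 DAHB+O libraries above all 3 DAHB libraries (35.6% of tested genes). Rpa3 and E2f2 passed in neither direction. The median log2 difference was 0.64, beside 0.016 over all tested genes, and the highest was 1.20 for Timeless. 5 genes rose at least 2-fold, beside 2.80% of tested genes, and 27 at least 1.5-fold, beside 9.70% of tested genes. Against NaCl, 32 of the 48 were lower in DAHB+O, 8 were higher and 8 passed in neither direction, where 37.7% of tested genes were called lower and 36.5% higher. With single libraries left out, 29 to 33 of the 48 were lower and 7 to 8 higher. Quantile normalization changed these counts too, as given further below. The median gene in DAHB+O stood at 84.2% of its NaCl mean, with a median log2 difference of -0.25 (all tested genes -0.014) and a range from -1.04 for Clspn to 0.41 for Prim1. These 3 comparisons are not independent, since the first and the second share the DAHB libraries and the first and the last share the NaCl libraries. Words such as fell, rose and remained compare separate groups of libraries, not stages of a time course.

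**Figure D1:**
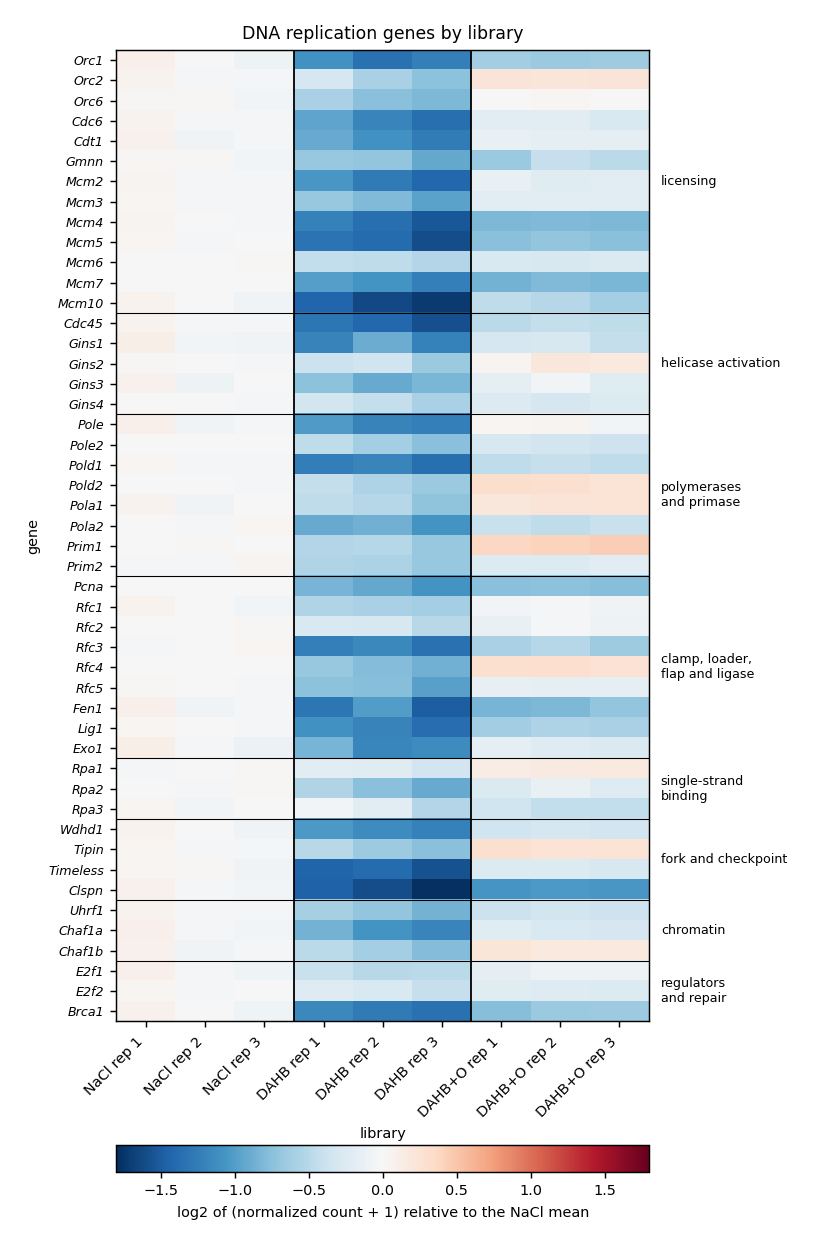
Log2 of the normalized count plus 1 of each of the 48 genes (rows, ordered by role) in each of the 9 libraries (columns), relative to the gene's NaCl mean. Blue is below and red above that mean. The 3 DAHB columns are blue in all 48 rows, the DAHB+O columns are paler in most rows, and Prim1 at 0.41 has the highest log2 difference of DAHB+O from NaCl.

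The promoters of these genes show what they share in sequence. RefSeq promoters on GRCm38.p6, 250 bases before to 50 bases after each annotated start, were found for 38 of the 48 genes. The letters of an E2F site were searched on both strands in their form TTTGGCG, and also in the variant form that reads TTTCCCG, the variant form that reads TTTGCCG and the variant form that reads TTTCGCG, and matches may overlap. At least 1 match stood in 22 of the 38 genes (57.9%), beside 12.9% of the 9438 tested genes with a promoter and 7.65% of all 27025 genes of the promoter table. There were 33 matches in those 22 genes, and 9 genes had 2 or more. The CCAAT letters were held by 65.8% of the 38 and 43.0% of tested genes. TTTGAA, the letters of the cell cycle homology region found in genes of mitosis, was held by 15.8% and 13.9%. The median GC content was 58.2% for the promoters of the 38 genes and 60.7% for those of tested genes. The share with an E2F match depends on the letters and the window. With 6-letter cores it was 86.8%, beside 44.9% of tested genes, and in the 200 bases before the start it was 34.2%, beside 9.09%. The 22 genes with a match had a median log2 difference of -1.06 in DAHB against NaCl and the 16 without -0.75. In DAHB+O against DAHB the order turned, at 0.59 with a match and 0.78 without, and in DAHB+O against NaCl the medians were -0.39 and -0.14, all given as a description. A match is a run of letters, not a binding site measured here.

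Stretches of 8 of these promoters follow, with the E2F letters in capitals, each read 5′ to 3′ on the strand of its gene and ending before the RefSeq start site. They were chosen to set genes that fell far in DAHB (Clspn, Mcm5, Fen1, Cdc6 and Chaf1a) beside genes that fell little (Mcm6 and Rpa3) and one that was above NaCl in DAHB+O (Pola1). Orc1, Rfc3 and Gins3 were also picked but are not shown. Their matches before the start site were not clear of annotated exons. In Mcm5 a pair of matches on opposite strands overlap, and Mcm6 has such a pair and another match closer to the start.
Clspn (GRCm38.p6, chr4:126556814-126556933, plus strand): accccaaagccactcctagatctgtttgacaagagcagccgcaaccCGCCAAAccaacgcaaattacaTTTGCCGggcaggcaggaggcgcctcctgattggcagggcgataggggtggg
Cdc6 (GRCm38.p6, chr11:98907982-98908076, plus strand): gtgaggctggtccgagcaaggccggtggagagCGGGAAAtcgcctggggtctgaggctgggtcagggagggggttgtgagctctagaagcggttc
Mcm5 (GRCm38.p6, chr8:75109302-75109421, plus strand): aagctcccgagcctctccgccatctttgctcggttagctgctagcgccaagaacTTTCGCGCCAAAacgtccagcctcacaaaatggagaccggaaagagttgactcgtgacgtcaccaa
Mcm6 (GRCm38.p6, chr1:128359721-128359840, minus strand): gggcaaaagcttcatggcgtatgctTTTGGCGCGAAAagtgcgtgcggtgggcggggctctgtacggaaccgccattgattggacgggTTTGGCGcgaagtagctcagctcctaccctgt
Chaf1a (GRCm38.p6, chr17:56040296-56040415, plus strand): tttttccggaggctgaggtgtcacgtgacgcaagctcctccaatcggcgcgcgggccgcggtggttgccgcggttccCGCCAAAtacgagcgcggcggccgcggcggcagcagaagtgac
Fen1 (GRCm38.p6, chr19:10204394-10204513, minus strand): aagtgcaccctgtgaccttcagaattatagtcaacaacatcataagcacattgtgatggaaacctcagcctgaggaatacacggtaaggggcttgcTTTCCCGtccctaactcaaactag
Pola1 (GRCm38.p6, chrX:93632230-93632349, minus strand): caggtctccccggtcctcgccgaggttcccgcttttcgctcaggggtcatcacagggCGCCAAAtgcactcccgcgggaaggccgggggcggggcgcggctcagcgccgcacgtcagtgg
Rpa3 (GRCm38.p6, chr6:8259174-8259287, minus strand): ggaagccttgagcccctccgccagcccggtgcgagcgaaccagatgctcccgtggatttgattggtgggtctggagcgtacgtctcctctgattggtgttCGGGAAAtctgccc
E2F letters stood in the shown stretch of Rpa3, whose log2 difference in DAHB against NaCl was the smallest of the 48, as well as in that of Clspn, whose difference was the largest. Mcm6, with 3 matches, fell less than Mcm5, with 2. Clspn holds a further match at base 23 past the start site, outside its shown stretch. The stretch of Cdc6 lies between exons of the gene as GENCODE annotates it, which starts further upstream.

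Licensing genes were all lower in DAHB, 13 of 13, with a median log2 difference of -1.10, and all 13 were higher in DAHB+O than in DAHB (median 0.70). Of all tested genes 38.4% were called lower in DAHB than in NaCl and 33.1% higher in DAHB+O than in DAHB. These shares stand beside the counts of every role below. The 6 subunits of the MCM ring did not move by the same amount. Mcm5 (chromosome 8, 75109569 to 75128439, plus strand, mm10 here and below) stood at 14005, 13364 and 13622 in NaCl, 5450.0, 5243 and 4507 in DAHB, and 8100.3, 8342 and 8098 in DAHB+O normalized counts. The DAHB libraries held well under NaCl and the DAHB+O libraries lay between them, with no overlap of groups. The log2 difference was -1.44 ± 0.055 in DAHB against NaCl (SE, limma adjusted p = 7.56e-12) and 0.70 ± 0.055 in DAHB+O against DAHB (adjusted p = 4.32e-08). Mcm4 (chromosome 16, 15623897 to 15637400, minus strand) followed the same course, at 13117, 12577 and 12387 in NaCl, 5489, 4935 and 4388 in DAHB, and 7246, 7348 and 7219 in DAHB+O. It fell 2.58-fold in DAHB (adjusted p = 2.67e-11) and remained 1.75-fold below NaCl in DAHB+O (adjusted p = 8.59e-09). Mcm7 (chromosome 5, 138164583 to 138172422, minus strand) had 13734, 13577 and 13803 in NaCl, 6864, 6506 and 5827 in DAHB, and 7599, 7899.7 and 7769 in DAHB+O. Its DAHB+O libraries were nearer to DAHB than to NaCl, with log2 differences of -1.10 ± 0.049 in DAHB against NaCl, 0.28 ± 0.049 in DAHB+O against DAHB and -0.82 ± 0.049 in DAHB+O against NaCl (SE, adjusted p = 3.11e-11, 1.34e-04 and 7.12e-10). It shares 12.6% of its exon bases with other genes, among them 2 microRNA genes that lie inside it.

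Mcm2 (chromosome 6, 88883474 to 88898780, minus strand) stood at 8721, 8158 and 8317 in NaCl, 4054, 3483 and 3166 in DAHB, and 7692, 7213 and 7352 in DAHB+O. Here the DAHB+O libraries came close to NaCl without overlapping it, and the log2 differences were -1.24 ± 0.066 in DAHB against NaCl and 1.06 ± 0.066 in DAHB+O against DAHB (SE, adjusted p = 2.31e-10 and 3.33e-09). Mcm3 (chromosome 1, 20802968 to 20820312, minus strand) had 15739.6, 15175 and 15145 in NaCl, 9586, 8878 and 7904 in DAHB, and 13499, 13309 and 13336 in DAHB+O. It fell 1.75-fold in DAHB and rose 1.53-fold from DAHB to DAHB+O (adjusted p = 2.43e-09 and 1.20e-07). Mcm6 (chromosome 1, 128331590 to 128359664, minus strand) changed least of the 6 in DAHB against NaCl and in DAHB+O against DAHB, at 19619, 19662 and 20097 in NaCl, 14616, 14373 and 13686 in DAHB, and 16313, 16146 and 16476 in DAHB+O. Its DAHB libraries were below NaCl and its DAHB+O libraries between the 2 groups, with log2 differences of -0.48 ± 0.035 and 0.20 ± 0.035 (SE, adjusted p = 8.54e-09 and 1.67e-04). In DAHB+O against NaCl all 6 MCM ring genes were called lower (median log2 difference -0.51), beside 37.7% of all tested genes. Under quantile normalization, however, Mcm2 and Mcm3 turned to 0.013 and 0.00037 and were not called. Mcm2 was also not called without NaCl replicate 1 (adjusted p = 0.0828), DAHB+O replicate 2 (0.0822) or DAHB+O replicate 3 (0.0601).

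The factors that load the ring moved in the same direction. Cdc6 (chromosome 11, 98907801 to 98923940, plus strand), an ATPase that binds the origin recognition complex, stood at 2926, 2715 and 2737 in NaCl, 1452, 1221 and 1087 in DAHB, and 2424, 2438 and 2317 in DAHB+O. The DAHB libraries were far below the other 2 groups, which did not overlap each other. The log2 difference was -1.17 ± 0.076 in DAHB against NaCl and 0.94 ± 0.076 in DAHB+O against DAHB (SE, adjusted p = 2.29e-09 and 5.43e-08). Against NaCl, Cdc6 was still lower in DAHB+O (-0.22 ± 0.076, SE, adjusted p = 0.0161), a call lost under quantile normalization (0.547) and without NaCl replicate 1 (0.0632) or DAHB+O replicate 3 (0.0577). Cdt1 (chromosome 8, 122568015 to 122573554, plus strand), which brings the ring to the origin, had 4330.2, 3912 and 4051 in NaCl, 2177, 1929.9 and 1710.2 in DAHB, and 3746, 3675 and 3650.0 in DAHB+O. Its DAHB+O libraries lay just under NaCl with no overlap, but the log2 difference of -0.15 ± 0.067 did not pass (SE, adjusted p = 0.0545). It passed in the replicate-blocked fit, in the fit of only the 6 libraries compared, by DESeq2 on the recovered reads and without NaCl replicate 2 (adjusted p = 0.0141, 0.00213, 0.0423 and 0.0428), and under quantile normalization it turned to 0.045 and was not called. Gmnn (chromosome 13, 24751845 to 24761923, minus strand), which encodes geminin, the protein that holds Cdt1 inactive, had 2608, 2596 and 2489 in NaCl, 1592, 1565 and 1359 in DAHB, and 1606, 1931 and 1834 in DAHB+O. It was 1.71-fold below NaCl in DAHB (adjusted p = 6.73e-08) and 1.19-fold higher in DAHB+O than in DAHB (adjusted p = 0.00501). In DAHB+O it was 1.44-fold below NaCl (adjusted p = 5.02e-06).

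The ratio of Cdt1 to Gmnn within 1 library does not depend on how that library was scaled. It was 1.66, 1.51 and 1.63 in NaCl, 1.37, 1.23 and 1.26 in DAHB, and 2.33, 1.90 and 1.99 in DAHB+O. The 3 groups did not overlap. The log2 ratio differed by -0.31 in DAHB against NaCl, 0.69 in DAHB+O against DAHB and 0.37 in DAHB+O against NaCl, each with an exact two-sided permutation p of 0.1, the smallest that 3 against 3 libraries can give (3 comparisons).

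Among the subunits of the origin recognition complex in the list, Orc1 had a mean of 1066 ± 63.7 in NaCl, 458 ± 41.1 in DAHB and 682 ± 12.3 in DAHB+O (SD, n = 3) and Orc6 of 2228 ± 57.1 in NaCl, 1364 ± 114 in DAHB and 2243 ± 33.2 in DAHB+O (SD, n = 3). Orc1, the ATPase subunit, fell 2.33-fold in DAHB and Orc6 1.64-fold (adjusted p = 4.14e-10 and 1.01e-08). In DAHB+O, Orc1 remained below NaCl (log2 difference -0.64 ± 0.068, SE, adjusted p = 5.52e-07), while the groups overlapped for Orc6 (0.01 ± 0.053, adjusted p = 0.871). Under quantile normalization Orc6 was called higher there (0.176, adjusted p = 0.00782). Orc2 (1655, 1554 and 1538 in NaCl, 1277, 1054 and 952 in DAHB, and 1864, 1848 and 1867 in DAHB+O) was above NaCl in DAHB+O by 0.23 ± 0.078 (SE, adjusted p = 0.0135), a call lost without NaCl replicate 3 (0.0504). It shares 29.8% of its exon bases with Nif3l1 on the opposite strand, and whether counting used strand is not given in the sources used here. Mcm10 (chromosome 2, 4989714 to 5012791, minus strand) helps to start the helicase, but was grouped here with licensing and had the largest fall of that group. It stood at 2905, 2748 and 2660.3 in NaCl, 1027, 902 and 837 in DAHB, and 2025, 1948 and 1817 in DAHB+O. The 3 DAHB libraries were far below NaCl, and the log2 differences were -1.59 ± 0.066 and, from DAHB to DAHB+O, 1.07 ± 0.066 (SE, adjusted p = 1.73e-11 and 3.26e-09).

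The genes that turn the loaded ring into a helicase were lower in DAHB in 5 of 5 cases and higher in DAHB+O than in DAHB in 5 of 5. Cdc45 (chromosome 16, 18780447 to 18811987, minus strand) had 3013, 2833 and 2802 in NaCl, 1171, 1085 and 961 in DAHB, and 2053, 2132 and 2097 in DAHB+O. The groups stood apart in the order NaCl, DAHB+O, DAHB, with log2 differences of -1.43 ± 0.06 in DAHB against NaCl and 0.97 ± 0.06 in DAHB+O against DAHB (SE, adjusted p = 1.87e-11 and 3.24e-09). Gins4, a subunit of the GINS complex, changed least in both of these comparisons, at 1856, 1854 and 1809 in NaCl, 1463, 1371 and 1228 in DAHB, and 1546, 1496 and 1547 in DAHB+O. It fell 1.36-fold in DAHB and rose 1.13-fold from DAHB to DAHB+O (adjusted p = 3.11e-06 and 0.0111). The other GINS subunits fell 2.14-fold (Gins1), 1.38-fold (Gins2) and 1.77-fold (Gins3) in DAHB. In DAHB+O against NaCl, Gins1 and Gins4 were lower, and Gins2 and Gins3 did not pass, with log2 differences of 0.14 ± 0.072 and -0.14 ± 0.074 (SE, adjusted p = 0.086 and 0.0895). All 3 DAHB+O libraries of Gins2 lay above NaCl, and it was called higher in the fit of only the 6 libraries compared, under TMM rescaling, under quantile normalization and by edgeR on the recovered reads (adjusted p = 0.0106, 0.0496, 0.00701 and 0.0319). Gins3 was called lower under quantile normalization and without DAHB+O replicate 2 (adjusted p = 0.0106 and 0.0438). Gins2 shares 67.3% of its exon bases with Gse1 on the opposite strand, so reads of the 2 genes may not be separated.

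Polymerase and primase genes all fell in DAHB (8 of 8, median log2 difference -0.60) and all rose from DAHB to DAHB+O (8 of 8, median 0.80). Pold1 (chromosome 7, 44532746 to 44548849, minus strand), the catalytic subunit of polymerase delta, fell most, at 6474, 6228 and 6179.6 in NaCl, 2662, 2758 and 2466 in DAHB, and 4595, 4729 and 4563 in DAHB+O. DAHB+O lay between the other groups, with log2 differences of -1.26 ± 0.043 and 0.82 ± 0.043 (SE, adjusted p = 2.25e-12 and 5.38e-10). Its partner Pold2 fell least, at 2699, 2687 and 2637 in NaCl, 1994, 1814 and 1678 in DAHB, and 3329.6, 3279 and 3159.9 in DAHB+O. In DAHB it was 1.47-fold below NaCl (adjusted p = 1.73e-07), but every DAHB+O library was above every NaCl library, with a log2 difference of 0.28 ± 0.053 (SE, adjusted p = 1.84e-04). Pole (chromosome 5, 110286306 to 110337474, plus strand), the catalytic subunit of polymerase epsilon, had 5218, 4706 and 4834 in NaCl, 2427, 2144 and 2089.7 in DAHB, and 5041, 5072 and 4751 in DAHB+O. The NaCl and DAHB+O libraries overlapped (log2 difference 0.01 ± 0.056, adjusted p = 0.866), and the rise from DAHB to DAHB+O was 1.16 ± 0.056 (SE, adjusted p = 1.90e-10). Under quantile normalization Pole was called higher than NaCl in DAHB+O (0.206, adjusted p = 0.00449). Pole2, its accessory subunit, had 968, 953 and 960.5 in NaCl, 703, 628 and 568 in DAHB, and 783, 763 and 742 in DAHB+O. It rose by 0.27 ± 0.067 from DAHB to DAHB+O and remained 1.26-fold below NaCl (adjusted p = 0.00247 and 3.84e-04).

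The 4 genes of the polymerase alpha and primase complex split in DAHB+O. Prim1 (chromosome 10, 128015168 to 128030037, plus strand), which makes the RNA primer, stood at 2452, 2492 and 2455 in NaCl, 1704, 1733 and 1542 in DAHB, and 3193, 3249 and 3361 in DAHB+O. All DAHB+O libraries were above all NaCl libraries, with log2 differences of -0.57 ± 0.046 in DAHB against NaCl, 0.98 ± 0.046 in DAHB+O against DAHB and 0.41 ± 0.046 in DAHB+O against NaCl (SE, adjusted p = 2.42e-08, 1.68e-10 and 1.19e-06). Pola1, the catalytic subunit, followed the same order, with 3286 ± 144 in NaCl, 2234 ± 222 in DAHB and 3843 ± 55.5 in DAHB+O (SD, n = 3), and in DAHB+O it was 1.17-fold above NaCl (adjusted p = 0.00298). Prim2 and Pola2, the accessory subunits, remained below NaCl in DAHB+O. Their means were 2487, 1644 and 2125 and 2893, 1498 and 2162 in NaCl, DAHB and DAHB+O, and their log2 differences of DAHB+O from NaCl were -0.23 ± 0.046 and -0.42 ± 0.051 (SE, adjusted p = 4.08e-04 and 2.52e-06). The call of Prim2 was lost under quantile normalization (adjusted p = 0.205).

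Genes of the clamp, its loader and lagging-strand joining were lower in DAHB in 9 of 9 cases (median log2 difference -0.95) and higher in DAHB+O than in DAHB in 9 of 9. Pcna (chromosome 2, 132249162 to 132253314, minus strand), the sliding clamp, stood at 16991, 16929 and 16909.6 in NaCl, 9501, 8949 and 8011 in DAHB, and 10082, 10157 and 10002 in DAHB+O. The DAHB+O libraries lay just above DAHB and far from NaCl, with log2 differences of -0.95 ± 0.049 in DAHB against NaCl, 0.20 ± 0.049 in DAHB+O against DAHB and -0.75 ± 0.049 in DAHB+O against NaCl (SE, adjusted p = 1.68e-10, 0.00264 and 2.09e-09). Pcna has 2 annotated pseudogenes that carry its name, and how the counting treated reads that fit both is not given in the sources used here. Pseudogenes under other names were not searched, for Pcna or for any other of the 48. Fen1, the nuclease that trims flaps between fragments, had the lowest counts of the 48, at 236, 210.4 and 216 in NaCl, 88.6, 109 and 78.2 in DAHB, and 123, 126 and 134 in DAHB+O. It fell 2.4-fold in DAHB (adjusted p = 2.33e-07), and 84.2% of its exon bases are shared with Tmem258 and Gm10143 on the opposite strand, so its values are uncertain. Lig1, the ligase that seals the fragments, fell 2.33-fold, from 9064 ± 224 to 3908 ± 382 (SD, n = 3, adjusted p = 4.45e-11). Exo1, an exonuclease, fell 2.07-fold (adjusted p = 1.10e-08). Both stayed below NaCl in DAHB+O, Lig1 by a log2 difference of -0.59 ± 0.056 and Exo1 by -0.21 ± 0.079 (SE, adjusted p = 1.39e-07 and 0.0242). The Exo1 call was lost under quantile normalization (adjusted p = 0.197) and without NaCl replicate 1 (0.115), DAHB+O replicate 2 (0.0617) or DAHB+O replicate 3 (0.0804).

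The 5 subunits of replication factor C, which opens the clamp and loads it, were all lower in DAHB and stood at different places relative to NaCl in DAHB+O. Rfc4 (chromosome 16, 23113943 to 23127737, minus strand) had 1775, 1778 and 1762 in NaCl, 1101, 1034 and 974 in DAHB, and 2163, 2191 and 2112 in DAHB+O. DAHB+O was above NaCl in every library, with log2 differences of -0.78 ± 0.048, 1.06 ± 0.048 and 0.28 ± 0.048 in DAHB against NaCl, DAHB+O against DAHB and DAHB+O against NaCl (SE, adjusted p = 1.09e-09, 1.00e-10 and 6.88e-05). Rfc2 fell least, at 3585, 3583 and 3648 in NaCl, 2968, 2941 and 2541 in DAHB, and 3288, 3567 and 3380.4 in DAHB+O. In DAHB+O it did not pass against NaCl (log2 difference -0.08 ± 0.054, adjusted p = 0.191), and neither did Rfc1 (-0.04 ± 0.038, adjusted p = 0.325), the large subunit. Under quantile normalization Rfc1 was called higher there (0.157, adjusted p = 0.00126) and Rfc2 turned to 0.098 (adjusted p = 0.0999). Rfc3 fell 2.37-fold in DAHB and remained 1.49-fold below NaCl in DAHB+O (adjusted p = 3.68e-11 and 1.68e-07). Rfc5 fell 1.77-fold in DAHB and was 1.12-fold below NaCl in DAHB+O (adjusted p = 2.05e-09 and 0.0115), but under quantile normalization that difference turned to 0.0076 and was not called. Exon bases are shared with a gene on the opposite strand by Rfc2 (15.1%, Lat2), Rfc4 (12.7%, Eif4a2) and Rfc5 (10.7%, Wsb2).

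Replication protein A coats single-stranded DNA, and its 3 subunit genes fell in DAHB, with a median log2 difference of -0.25 beside -0.82 for all 48. Rpa1, the large subunit, had 9129, 9377 and 9443 in NaCl, 8085, 8028 and 7338 in DAHB, and 10172, 10453 and 10491 in DAHB+O. It was 1.19-fold below NaCl in DAHB and 1.11-fold above NaCl in DAHB+O (adjusted p = 3.78e-05 and 0.00279). Rpa2 had 2682, 2614 and 2715 in NaCl, 1828, 1583 and 1429 in DAHB, and 2228, 2434 and 2282 in DAHB+O. On the log2 scale it was 0.73 lower in DAHB than in NaCl and 0.53 higher in DAHB+O than in DAHB (adjusted p = 1.23e-07 and 8.01e-06). In DAHB+O it was below NaCl (-0.21 ± 0.068, SE, adjusted p = 0.013), a call lost under quantile normalization (0.644) and without DAHB+O replicate 1 (0.054). Rpa3 (chromosome 6, 8255936 to 8259173, minus strand), the small subunit, was at 1209, 1135 and 1182 in NaCl, 1133, 1032 and 819 in DAHB, and 917, 868 and 869 in DAHB+O. Its DAHB and DAHB+O libraries overlapped, and DAHB replicate 1 lay just under the lowest NaCl library. The log2 difference was -0.25 ± 0.087 in DAHB against NaCl (SE, adjusted p = 0.0166) and -0.16 ± 0.087 in DAHB+O against DAHB (adjusted p = 0.133). Without DAHB replicate 3 the first call was lost (-0.12, adjusted p = 0.0712) and the second became a fall (-0.29, adjusted p = 0.000495). The first call was also lost without NaCl replicate 1 (0.0507) and under quantile normalization (0.197), where the second became a fall (-0.216, adjusted p = 0.0432).

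All 4 fork and checkpoint genes were lower in DAHB and higher in DAHB+O than in DAHB, and 1 of them had the largest fall of the list. Clspn (chromosome 4, 126556935 to 126593903, plus strand), which encodes Claspin, the adaptor that lets ATR activate CHK1, stood at 3201, 2964 and 2934 in NaCl, 1103, 1007 and 875 in DAHB, and 1455, 1488 and 1467 in DAHB+O. DAHB was far below NaCl in every library, and DAHB+O stayed nearer to DAHB. Its log2 differences were -1.61 ± 0.067 in DAHB against NaCl, 0.57 ± 0.067 in DAHB+O against DAHB and -1.04 ± 0.067 in DAHB+O against NaCl (SE, adjusted p = 1.65e-11, 2.96e-06 and 1.76e-09). Timeless (chromosome 10, 128232065 to 128252941, plus strand), of the fork protection complex, had 3032, 3010.3 and 2829 in NaCl, 1089.6, 1131 and 994 in DAHB, and 2498, 2489 and 2413 in DAHB+O. It fell nearly as far as Clspn in DAHB and rose more in DAHB+O, with log2 differences of -1.47 ± 0.05 and 1.20 ± 0.05 (SE, adjusted p = 2.32e-12 and 4.84e-11). Tipin, its binding partner, had 3502, 3376 and 3353 in NaCl, 2409, 2160.3 and 2024 in DAHB, and 4185, 4043 and 4058 in DAHB+O. In DAHB+O all Tipin libraries were above NaCl (0.26 ± 0.053, SE, adjusted p = 3.34e-04), while Timeless was below (-0.26 ± 0.05, adjusted p = 2.41e-04, and not called under quantile normalization, 0.1). Wdhd1, which links the helicase to polymerase alpha, fell 2.19-fold in DAHB and was 1.26-fold below NaCl in DAHB+O (adjusted p = 4.00e-11 and 2.30e-05).

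**Figure D2:**
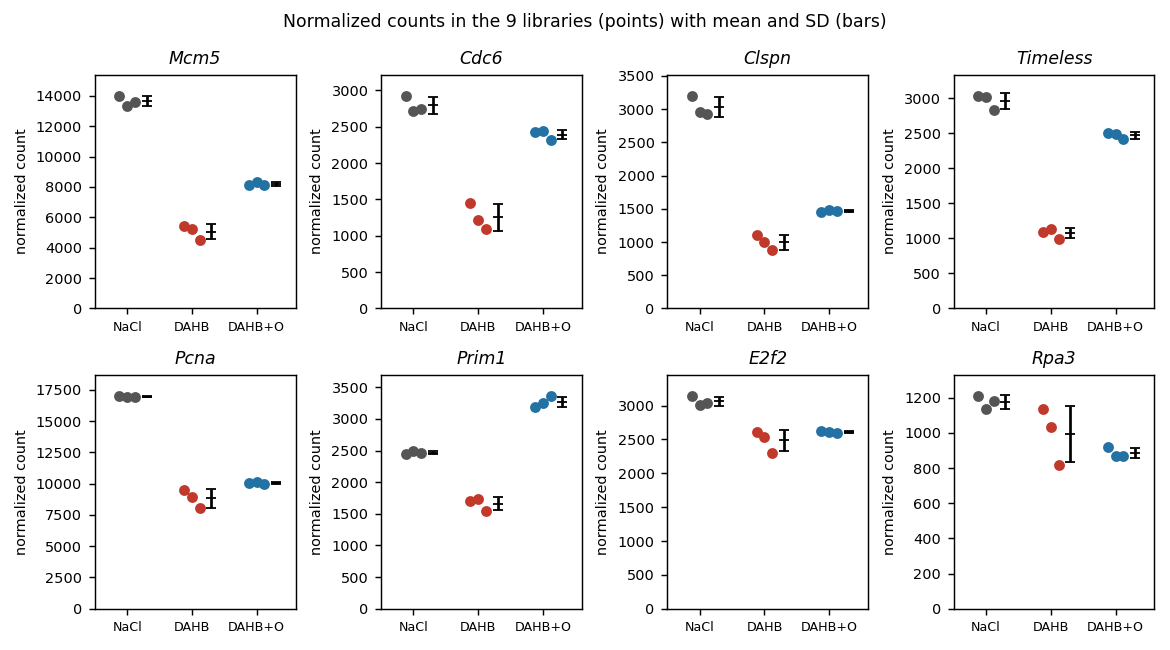
Normalized counts of 8 genes in the 9 libraries (points, 3 per group) with the mean and SD of each group beside them, on linear axes that start at 0. DAHB is below NaCl in every library of each gene; the DAHB+O libraries of Prim1 lie above NaCl, and those of Rpa3 overlap DAHB.

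All 3 genes that restore chromatin on new DNA were lower in DAHB, and all 3 were higher in DAHB+O than in DAHB. Uhrf1 (chromosome 17, 56303321 to 56323486, plus strand), which recruits the maintenance methyltransferase to half-methylated DNA, had 13263, 12493 and 12454 in NaCl, 8394, 7811 and 7043 in DAHB, and 9742, 10112 and 9838 in DAHB+O. DAHB+O lay between the other groups, with log2 differences of -0.72 ± 0.052 and 0.36 ± 0.052 (SE, adjusted p = 7.33e-09 and 2.77e-05). Chaf1a and Chaf1b encode subunits of chromatin assembly factor 1, which deposits histones at the fork. Chaf1a stood at 3853, 3537 and 3503 in NaCl, 2019, 1729 and 1599 in DAHB, and 3111, 2990.5 and 2958 in DAHB+O, and Chaf1b at 1651, 1486 and 1541 in NaCl, 1114, 1021 and 911 in DAHB, and 1805, 1759 and 1770.1 in DAHB+O. In DAHB, Chaf1a fell 2.04-fold and Chaf1b 1.54-fold (adjusted p = 2.17e-09 and 3.66e-07). In DAHB+O, Chaf1a was below NaCl (-0.26 ± 0.067, SE, adjusted p = 0.00235) and Chaf1b above it (0.19 ± 0.064, adjusted p = 0.0141). The Chaf1a call was lost under quantile normalization (0.187) and the Chaf1b call without NaCl replicate 2 (0.0656), and 52.5% of the exon bases of Chaf1a are shared with Ubxn6 on the opposite strand.

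The list holds a pair of activating E2F factors and Brca1. E2f1 (chromosome 2, 154559407 to 154569892, minus strand) stood at 1885, 1733 and 1669.9 in NaCl, 1330.4, 1247 and 1253 in DAHB, and 1566, 1651 and 1652 in DAHB+O. The 3 groups did not overlap, and it fell by 0.46 in DAHB and rose by 0.35 in DAHB+O on the log2 scale (adjusted p = 9.04e-07 and 3.23e-05). Against NaCl the DAHB+O value did not pass (-0.12 ± 0.052, SE, adjusted p = 0.0514), but it passed in the replicate-blocked fit (0.0404), the fit of only the 6 libraries compared (0.0327), the robust variance model (0.0495), at a minimum mean of 50 (0.0495) and without NaCl replicate 3 (0.0247), and under quantile normalization it turned to 0.022. E2f2 (chromosome 4, 136172394 to 136196057, plus strand) had 3139, 3011 and 3036 in NaCl, 2616, 2531 and 2305 in DAHB, and 2622, 2603 and 2590.4 in DAHB+O. It fell 1.23-fold in DAHB (adjusted p = 2.38e-05), and its DAHB and DAHB+O libraries overlapped (0.07 ± 0.046, SE, adjusted p = 0.194). Without DAHB replicate 1 that difference was called higher (0.11, adjusted p = 0.0466). The E2f2 call against NaCl in DAHB+O (-0.23, adjusted p = 3.00e-04) was lost under quantile normalization (0.169). Brca1, a factor of DNA repair at forks, had 3607, 3405 and 3250.2 in NaCl, 1534, 1417 and 1354 in DAHB, and 2014, 2154 and 2182 in DAHB+O. It fell 2.38-fold in DAHB and remained 1.62-fold below NaCl in DAHB+O (adjusted p = 2.50e-11 and 1.63e-08).

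**Figure D3:**
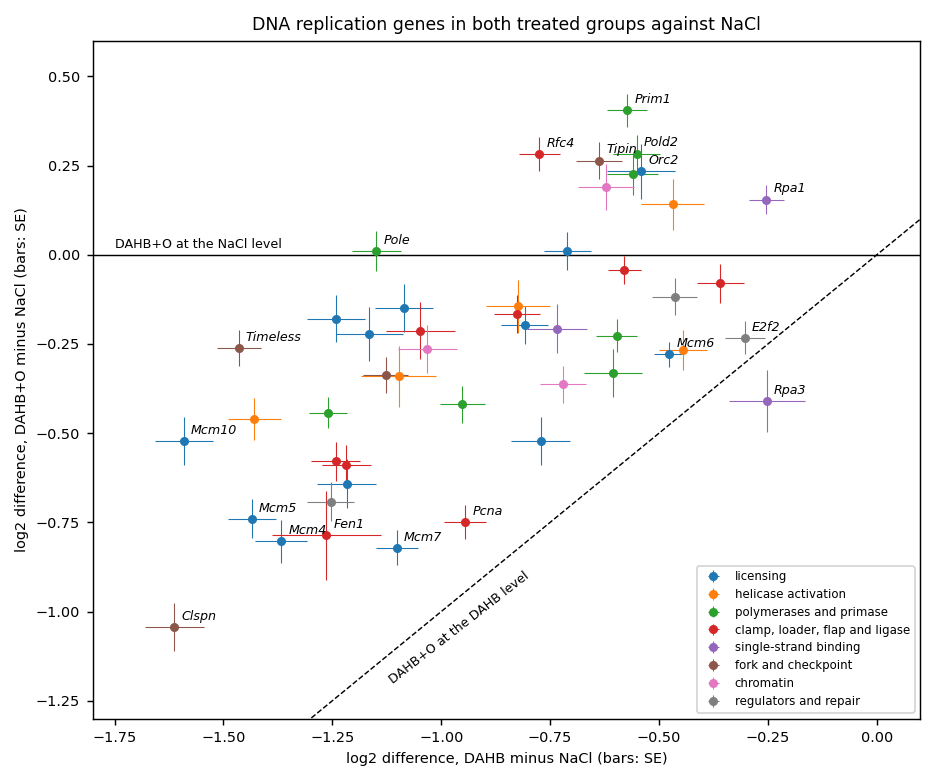
Log2 difference from NaCl of each of the 48 genes in DAHB (x axis) and in DAHB+O (y axis), with SE bars and colours by role; both axes share the NaCl libraries. Points on the dashed line have the same level in both treated groups and points on the horizontal line are at the NaCl level; Rpa3 lies below the dashed line, and 8 genes called higher than NaCl lie above the horizontal line.

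The 8 genes called higher than NaCl in DAHB+O were Orc2, Pold2, Pola1, Prim1, Rfc4, Rpa1, Tipin and Chaf1b, with log2 differences from 0.15 (Rpa1) to 0.41 (Prim1). None of them reached 1.5-fold, which 21.3% of tested genes did in that direction. Quantile normalization gave 12 higher and 23 lower genes in this comparison, beside 36.0% and 38.9% of all tested genes. The 8 that passed in neither direction were Orc6, Cdt1, Gins2, Gins3, Pole, Rfc1, Rfc2 and E2f1. 9 of the 32 lower genes were at least 1.5-fold lower (15.4% of tested genes), and Clspn was the only one of the 48 past 2-fold in either direction (6.06% of tested genes were called lower by 2-fold or more).

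Subunits of 1 complex can be compared as a ratio within a library, which the scaling of that library does not touch. These pairs were chosen after the values were seen, each with the subunit that was higher relative to NaCl in DAHB+O on top, so the sign in that comparison was set by the choice and no test is given. The log2 ratio of Orc2 to Orc1 was 0.55, 0.55 and 0.62 in NaCl, 1.34, 1.32 and 1.07 in DAHB, and 1.43, 1.47 and 1.44 in DAHB+O. Every library of both treated groups was above NaCl. For Prim1 to Prim2 the ratio was 0.019, 0.019 and -0.073 in NaCl, -0.0034, 0.047 and -0.0049 in DAHB, and 0.61, 0.63 and 0.63 in DAHB+O, so that NaCl and DAHB overlapped and DAHB+O stood apart. The mean log2 ratio of Rpa1 to Rpa3 had the same course, at 2.99 in NaCl, 2.98 in DAHB and 3.55 in DAHB+O. Pold2 to Pold1 was -1.23 in NaCl, -0.53 in DAHB and -0.51 in DAHB+O, so the 2 treated groups overlapped and NaCl stood apart. Chaf1b to Chaf1a did likewise, at -1.22, -0.81 and -0.76. Rfc4 to Rfc3 was 0.21, 0.67 and 1.07 in the same order of groups, and Pola1 to Pola2 was 0.18, 0.57 and 0.83. Tipin to Timeless was 0.21 in NaCl, 1.03 in DAHB and 0.73 in DAHB+O. Pole to Pole2 was 2.35, 1.81 and 2.70, and Mcm2 to Mcm7 was -0.71, -0.85 and -0.064. Gins2 to Gins1 was 0.66, 1.29 and 1.14. Orc2, Gins2 and Chaf1a share 29.8%, 67.3% and 52.5% of their exon bases with a gene on the opposite strand. The ratios of these genes are therefore uncertain.

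**Figure D4:**
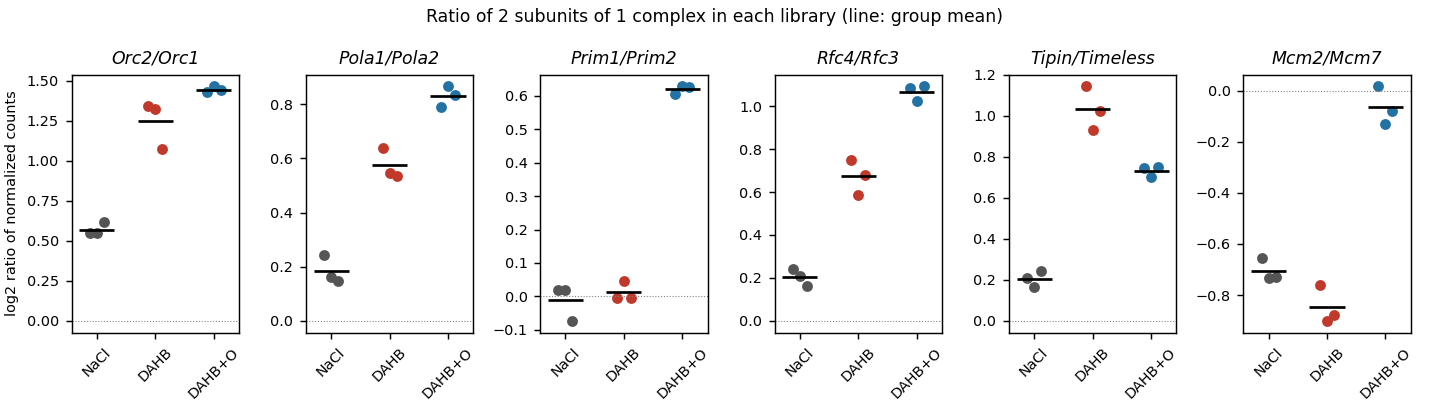
Log2 ratio of the normalized counts of 2 subunits of 1 complex in each library (points) with the group mean (line), for 6 of the 11 pairs. Prim1/Prim2 is near 0 in NaCl and DAHB and above 0.6 in DAHB+O, while Orc2/Orc1 is higher in both treated groups than in NaCl. Orc2 shares 29.8% of its exon bases with Nif3l1 on the opposite strand.

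Levels of different genes were compared per kilobase of exon. Pcna was highest in all 3 groups, with 7059.7 ± 17.7 normalized counts per kilobase in NaCl, 3675 ± 314 in DAHB and 4200.2 ± 32.4 in DAHB+O (SD, n = 3). Mcm6 and Mcm3 followed, at 4242 ± 56.7 and 4092 ± 89.2 in NaCl and 3496 ± 35.4 and 3566 ± 27.3 in DAHB+O. The other MCM ring genes Mcm4, Mcm5 and Mcm7 stood at 3537 ± 105, 3422 ± 80.9 and 3096 ± 26.2 in NaCl, and Mcm2 at 1207 ± 41.8. Mcm4 was above Mcm5 in each NaCl library, although their ranges over the libraries overlapped. At the low end were Gins3 (202 ± 11.1), Exo1 (161 ± 12.2) and Fen1 (91.1 ± 5.54). The place of Fen1 is uncertain, since 84.2% of its exon bases are shared with other genes and all of them count in its length. The median of the 48 in NaCl was 599.6 per kilobase. By this level Clspn took place 33 of 48 in NaCl, 43 in DAHB and 44 in DAHB+O. Timeless took places 30, 40 and 33 in the same groups, and Rpa1 places 11, 6 and 8. Lengths are the union of annotated exons, and the order depends on them. With the longest transcript the median was 897. Pcna was still first, but Mcm7 was then second in NaCl at 4627, above Mcm6 at 4545 and Mcm3 at 4475, and Mcm5 at 4041 was above Mcm4 at 3537.

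Related genes outside the list were read from 9 lists of 141 genes, 140 of them tested. In DAHB against NaCl 121 were lower, 13 higher and 6 in neither direction (median log2 difference -0.55). Of all tested genes 38.4% were called lower and 35.5% higher there, which are the shares to set beside each related list in that comparison. In DAHB+O against DAHB 109 were higher, 14 lower and 17 in neither (median 0.44), beside 33.1% of all tested genes higher and 29.5% lower. In DAHB+O against NaCl 77 were lower, 31 higher and 32 in neither (median -0.18), beside 37.7% of all tested genes lower and 36.5% higher. Origin firing genes were lower in 13 of 13 cases and higher in DAHB+O than in DAHB in 13 of 13. Among them were Ccna2 (-1.52), Dbf4 (-1.20) and Ticrr (-1.39), the cyclin A gene, the activating subunit of the CDC7 kinase and a factor that recruits Cdc45 (log2 differences of DAHB from NaCl). Of 15 further origin and licensing genes 14 were lower, with Kat7 at -0.79, Orc5 at -1.15 and Dtl at -1.12. Orc5, a subunit of the same complex as Orc1, had 1513, 1524 and 1499 in NaCl, 651, 677 and 718 in DAHB, and 731, 719 and 689 in DAHB+O. It did not pass in DAHB+O against DAHB (0.07 ± 0.052, SE, adjusted p = 0.291), whereas Dtl, which marks Cdt1 for destruction at forks, had like means in NaCl and DAHB+O, with 3944 ± 167 in NaCl, 1821 ± 189 in DAHB and 3945 ± 113 in DAHB+O (SD, n = 3). Mcm9, a helicase of repair, was 0.16 higher in DAHB (adjusted p = 0.0287).

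In chromatin assembly and maintenance methylation 13 of 13 related genes were lower in DAHB, beside 38.4% of all tested genes. Among them were Dek at -1.32, Nasp at -1.47 and Hells at -1.20, again as log2 differences from NaCl. Cohesion genes were lower in 13 of 14 cases, with Esco2 at -1.46, Rad21 at -0.81 and Cdca5 at -1.21. Rad21, a subunit of the cohesin ring, was lower still in DAHB+O (-0.14 ± 0.034 against DAHB, SE, adjusted p = 0.00229). Of the fork protection and checkpoint genes 15 of 16 were lower, with Chek1 at -1.42, Wee1 at -1.12 and Tonsl at -1.18, and Mdc1 was higher at 0.34. In homologous recombination 19 of 21 were lower, with Rbbp8 at -1.36, Bard1 at -1.46 and Rad54l at -1.32. Bard1 is the partner of Brca1. Rad51c went the other way, at 237, 231 and 197 in NaCl, 393, 413 and 403 in DAHB, and 664, 732 and 702 in DAHB+O. It was higher in DAHB (0.87 ± 0.079) and again in DAHB+O (0.79 ± 0.079 against DAHB, SE, adjusted p = 9.55e-08 and 4.88e-07). Among polymerase accessory and fragment processing genes 11 of 13 were lower, with Pold3 at -0.96, Pole3 at -0.91 and Top1 at -0.54. Pold4, the small subunit of polymerase delta, and Rnaseh2c, of the RNase H2 complex, were higher at 0.45 and 0.21.

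Genes of deoxynucleotide supply moved in both directions. Of 12, 10 were lower in DAHB (38.4% of all tested genes), among them Tk1, thymidine kinase (-0.99), and Rrm1, the large subunit of ribonucleotide reductase (-0.94). Samhd1, which encodes a phosphohydrolase that breaks deoxynucleotides down, was at 20360.4, 22968 and 22780.2 in NaCl, 75335, 82276 and 84005 in DAHB, and 22025, 24780.1 and 25561 in DAHB+O. NaCl and DAHB+O overlapped and every DAHB library was far above both. The log2 difference was 1.87 ± 0.061 in DAHB against NaCl and -1.74 ± 0.061 in DAHB+O against DAHB (SE, adjusted p = 1.48e-12 and 9.21e-12). Rrm2b, the reductase subunit that p53 induces, had 523, 524 and 556 in NaCl, 782, 806 and 824 in DAHB, and 1242, 1268 and 1259 in DAHB+O. It rose 1.5-fold in DAHB and 2.35-fold in DAHB+O against NaCl (adjusted p = 5.03e-08 and 1.36e-11).

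RB and E2F regulators moved in both directions in DAHB against NaCl, with 14 lower, 6 higher and 4 in neither direction of 24. The shares of all tested genes were 38.4% lower and 35.5% higher. Ccnd2, cyclin D2, had 17640.5, 16969 and 16453 in NaCl, 37991, 35872 and 35825 in DAHB, and 30022, 28260.3 and 27797 in DAHB+O. It was higher in both treated groups, with log2 differences of 1.10 ± 0.042 in DAHB and 0.75 ± 0.042 in DAHB+O against NaCl (SE, adjusted p = 6.99e-12 and 3.67e-10). Cdkn1a, the CDK inhibitor p21, had 7717, 8642 and 8081 in NaCl, 11876, 14529 and 13875 in DAHB, and 8054, 7537 and 7592 in DAHB+O. It was higher in DAHB than in both other groups, at 0.72 ± 0.063 against NaCl and -0.79 ± 0.063 in DAHB+O against DAHB (SE, adjusted p = 6.08e-08 and 4.33e-08). Cdkn1b, the CDK inhibitor p27, had 4268, 4468 and 4518 in NaCl, 1395, 1774 and 1713 in DAHB, and 1524, 1533 and 1601 in DAHB+O. It was lower in both treated groups, which overlapped each other (-1.45 ± 0.069 in DAHB against NaCl, SE, adjusted p = 7.22e-11). E2f8, a repressor of the family, fell 2.42-fold in DAHB (adjusted p = 7.48e-10). Also higher in DAHB were Ccnd1 (1.19, from a mean of 18.4 normalized counts), Myc (0.36), Cdk6 (0.27) and Rbl1 (0.26), as log2 differences from NaCl.

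**Figure D5:**
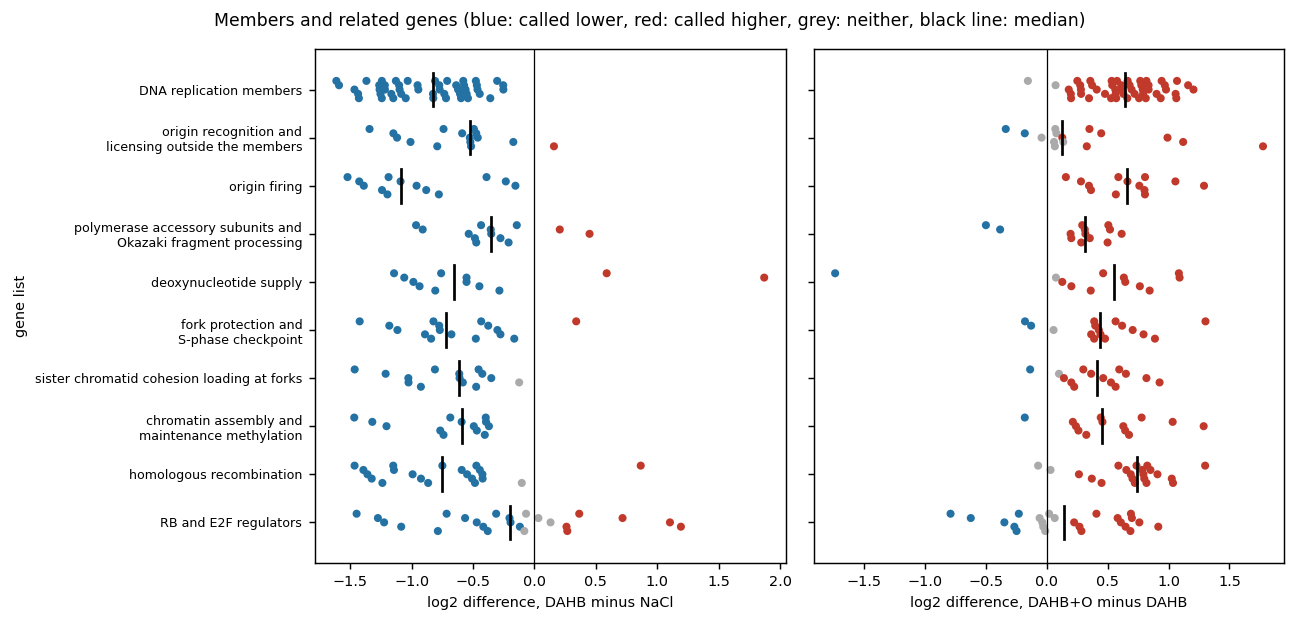
Log2 differences of the 48 genes and of 9 lists of related genes in DAHB against NaCl (left) and DAHB+O against DAHB (right), 1 point per gene, coloured by its call, with the median as a black line; both panels share the DAHB libraries. All 48 genes are blue on the left and 46 are red on the right, and Samhd1, at 1.87 on the left and -1.74 on the right, stands far from the other genes of its list.

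Summed markers of some other cell types differed between the groups, and within several lists the genes went in both directions. Sums are normalized counts, and calls are for DAHB against NaCl unless another comparison is named. In DAHB against NaCl 38.4% of all tested genes were called lower and 35.5% higher, and in DAHB+O against DAHB 29.5% and 33.1%. The B cell markers in the table (5 of 8) summed to 609 to 625 in the NaCl libraries, 720.4 to 727 in the DAHB libraries and 469 to 494 in the DAHB+O libraries. Of these 5, however, 2 were called lower, 1 higher and 2 in neither direction (median log2 difference -0.46), and in DAHB+O against DAHB 4 were lower and 0 higher. For monocytes and macrophages (6 of 7) the sums were 497 to 577, 1038 to 1251 and 809.7 to 926, with 3 genes lower and 3 higher (median -0.18). For natural killer cells (4 of 5, among them Eomes, which CD8 T cells also express) they were 676 to 829, 1180.4 to 1685 and 1370.2 to 1503, with 2 of 3 tested genes higher and 0 lower. For dendritic cells (4 of 6) they were 220.3 to 280.0, 442 to 522 and 350.1 to 405, with 1 gene lower and 3 higher. For neutrophils (2 of 5) they were 4.14 to 17.7, 30.8 to 98.0 and 3.78 to 8.93, so that NaCl and DAHB+O overlapped, and both genes were higher in DAHB. For erythroid cells (3 of 5) they were 32.1 to 37.4, 31.0 to 42.8 and 25.0 to 34.6, which overlapped in all groups, and the 1 tested gene was called in no comparison. The list of CD4 and regulatory T cells (5 of 5) summed to 53499 to 55949, 88569 to 96575 and 38421 to 39028, nearly all of it Il2ra, which activated CD8 T cells express, with 1 of 4 tested genes lower and 2 higher. Cd4 itself had means of 168, 216 and 231, and Foxp3 of 6.60, 4.97 and 2.99. The CD8 T cell list (8 of 8) summed to 96840.0 to 102512, 108627 to 113044 and 74054 to 79882, with 3 genes lower and 4 higher, and all 8 were lower in DAHB+O than in DAHB. The part of these cell types in the results was not tested.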

How the data were processed

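Messenger RNA of 9 samples of stimulated mouse CD8 T cells was measured after poly(A) selection, 3 libraries per group, and all 9 columns of the deposited table were used. Per the submitters' processing notes, the genome build was mm10, reads were handled with Trim Galore 0.4.5 and STAR 2.4, and Picard, HTSeq 0.9.1 and DESeq2 are also named. The annotation, strand setting and gene filter of the counting: not given in the sources used here. As for its unit, the deposited table holds a signal, read counts that the authors divided by a size factor per library. This follows from the values, of which 100% were whole multiples of 1 step per library, within 1e-06 reads. The table held no 0 and 1 blank cell, in a gene outside the list.

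Fits used log2 of the normalized count plus a pseudocount of 1, so folds are on the log2(value + 1) scale. Genes whose mean was 10 or more, 14169 in all, entered a fit of all 9 libraries with limma 3.58.1 (R 4.3.3), with a mean for each group and a trend in the variance. The 3 groups shared 1 estimate of the spread per gene, so a gene has the same SE in every comparison. The DAHB libraries varied most (median coefficient of variation 8.73%), and their spread enters the SE of DAHB+O against NaCl as well. P-values were two-sided and adjusted within each comparison by the Benjamini-Hochberg method, and calls were made at an adjusted p under 0.05. All 48 genes passed the filter, and their lowest value in any library was 78.2. Count tests on the recovered reads were alternatives. In DAHB against NaCl edgeR 4.0.16 called 5173 genes lower and 5333 higher, and DESeq2 1.42.0 called 5105 and 4974. The test was also run on simulated data with the same setting of the spread for all genes and groups. These libraries differ in spread between groups, so that run is no support for the calls given here. Further alternatives were other pseudocounts (0.5 and 10), other filters (none, or a minimum mean of 50), other scalings (TMM and quantile normalization), a robust variance model, a replicate block, fits of the 6 libraries of a comparison, calls that also needed a 1.5-fold change, and fits without single libraries.

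The 48 genes, the related lists and the marker lists were chosen with earlier results of these data known. Values in every library are given for the MCM ring, Cdt1, Cdc6, Gmnn, Pcna, E2f1, E2f2, Uhrf1, Clspn, the members with the largest and smallest difference in each role, and those that passed in neither direction in DAHB+O against DAHB. Of the related lists, the 3 genes with the smallest p in DAHB against NaCl and all genes higher there are named. Coordinates and exon lengths came from GENCODE vM21 (GRCm38, mm10), matched by symbol, and promoters from RefSeq on GRCm38.p6.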

Additional observations from a re-analysis of the deposited data

How the results depend on the processing

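Of 2448 values (48 genes, 3 comparisons, each under its alternatives), 2394 kept their direction and their side of the threshold. With the sign unchanged, 21 lost a call and 20 gained one. The other 13 changed sign, and among these Mcm2, Mcm3 and Rfc5 also lost a call and Rfc1 gained one, under quantile normalization. All 13 sign changes were in DAHB+O against NaCl, and their cause was not tested. Under quantile normalization the log2 difference there became 0.098 for Rfc2, 0.022 for E2f1, 0.16 for Rfc1, 0.00037 for Mcm3, 0.0076 for Rfc5, 0.045 for Cdt1 and 0.013 for Mcm2, while Pole (0.206), Orc6 (0.176), Gins2 (0.237) and Rfc1 were called higher than NaCl. Pole ranged from -0.020 to 0.054 with single libraries left out. It became -0.020 without NaCl replicate 2, -0.00091 without NaCl replicate 3, -0.0018 without DAHB+O replicate 1 and -0.0062 without DAHB+O replicate 2. Orc6 ranged from -0.011 to 0.023 and became -0.011 without NaCl replicate 3 and -0.0019 without DAHB+O replicate 2. The number of genes called lower in DAHB+O against DAHB was 0 to 1 when single libraries were left out and 1 under quantile normalization (29.1% of tested genes there), and that gene was Rpa3. With a required change of 1.5-fold, 27 genes were higher in DAHB+O against DAHB (9.70% of tested genes), and in DAHB+O against NaCl 9 were lower and 0 higher. The promoter shares and the level per kilobase moved with their definitions: 34.2% and 86.8% of the 38 genes, and 9.09% and 44.9% of tested genes, held E2F letters in the shorter window and with 6-letter cores, and the median level per kilobase was 897 with the longest transcript.

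The subunit ratios, added after seeing the data, changed sign where they lay near 0. Prim1 to Prim2 in DAHB against NaCl ranged from -0.0061 (without NaCl replicate 3) to 0.040. Pold2 to Pold1 in DAHB+O against DAHB ranged from -0.022 (without DAHB replicate 2) to 0.072, and was -0.0038 without DAHB+O replicate 1. Rpa1 to Rpa3 in DAHB against NaCl ranged from -0.090 to 0.074 (without DAHB replicate 1), and was 0.029 without NaCl replicate 2, 0.0040 without NaCl replicate 3 and 0.012 without DAHB replicate 2.

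The main fit did not pair libraries by replicate number. Libraries with the same number had correlated deviations of 0.027 to 0.16, and 2 of 9 were over 0.1. Every library correlated best with its own number (18 of 18 checks), a hint of pairing from the data that the main fit leaves out. With the replicate number as a block, 48 genes were lower in DAHB against NaCl (39.2% of tested genes), 46 were higher in DAHB+O against DAHB (34.1%), and 34 were lower (38.4%) and 8 higher (37.2%) in DAHB+O against NaCl. Size-factor scaling cannot show a change of total RNA per cell, and with 3 libraries per group small differences such as those of Rpa3 turn on single libraries.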
